A study of Homo sapiens with 6 samples.

Results

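The genes that make small RNAs and load them into Argonaute proteins were described in 3 oral squamous cell carcinoma (OSCC) lines after knockdown of DLEU1, a long noncoding RNA. All array probes that carry the name of 1 of 10 genes were taken, which gave 14 probes of 50599 outside the controls. The 10 genes are DROSHA, DGCR8, XPO5, DICER1, TARBP2, TNRC6A, and the Argonaute genes AGO1, AGO2, AGO3, and AGO4, which the array lists under the older names EIF2C1, EIF2C2, EIF2C3, and EIF2C4. HSC-3, KON, and Ca9-22 cells, established human lines grown in culture, each received a control siRNA (siCtrl) or an siRNA against DLEU1 by lipid transfection. The study names the latter siDLEU1-2. Total RNA was taken after 72 h, and 1 one-color Agilent array was hybridized for each line and siRNA, 6 arrays in all. The samples are named here by line and siRNA. The lines thus served as the 3 replicates of the knockdown, each of them 1 established line. All arrays of the knockdown group received the same siRNA, so changes that follow the loss of DLEU1 and changes that follow the siRNA itself cannot be told apart.

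MicroRNAs (miRNAs) are short RNAs that lower the output of messenger RNAs to which they pair. In the nucleus, the Microprocessor of DROSHA, an RNase, and DGCR8, its RNA-binding partner, cuts a hairpin out of the primary transcript, and XPO5 (exportin-5) carries that hairpin to the cytoplasm. DICER1, a second RNase, cuts it to a duplex together with TARBP2, and an Argonaute protein keeps 1 strand of the duplex as its guide. Transfected siRNAs enter the pathway at the Argonaute step, so Argonaute and GW182 proteins handle the reagent of the experiment as well as the miRNAs of the cell. GW182 proteins such as TNRC6A bind the loaded Argonaute and recruit the enzymes that shorten the poly(A) tail and remove the cap of the target.

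The strands of siDLEU1-2 are shown because they are what the Argonaute proteins of the knockdown cells received, with the guide bases 2 to 8, which pair first with a target (the seed), in capitals. The guide is the antisense strand, and both are printed 5′ to 3′ as RNA.
siDLEU1-2 guide: uUAAGUGCgauaaccccugua
siDLEU1-2 passenger: cagggguuaucgcacuuaagc

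None of 2370 mature human miRNA names in RefSeq (GRCh38.p14) has the seed of this guide, and 8 share its bases 3 to 8. Those 8 have 1 seed in common, and hsa-miR-106b-5p and hsa-miR-93-5p of this family are printed further on, where their host gene is described. The 7 letters that pair with the guide seed, GCACTTA, are in the sequence of 0 of the 14 probes and in 138 of 50599 probes on the array (0.273%). This says only that these letters are not in the 60 bases of each probe, since the rest of the transcripts was not searched.

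On all 6 arrays, the 14 probes were well above background, and they passed the filter on dim probes, which kept 19956 probes. Levels are given as log2 of the processed signal minus the 75th percentile of the array, so 0 is the signal of that percentile and a difference of 1 is 2-fold. Levels of different probes are not compared with each other, because probes differ in how well they bind. DLEU1 fell by 3.72 ± 0.34 on the log2 scale (SD, n = 3 lines, limma adjusted p = 0.0227), with changes of -4.10 (HSC-3), -3.63 (KON), and -3.44 (Ca9-22). The share of probes well above background was 43.0 to 45.7% per array. Of 8 squamous epithelial marker genes, 7 were well above background on all arrays and TP63 on 5 of 6. Of 13 markers of leukocytes, endothelium, fibroblasts, and melanocytes, 2 were so on all arrays, COL1A1 and CD14. Only COL1A2 and LUM were so on none, and the rest were so on some arrays. Of these, CDH5 and VWF (at 1 of its probes) were so on 5 of 6. In bulk RNA, fewer cells with a transcript and less of it per cell cannot be told apart.

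After siDLEU1-2, limma called DICER1 and 1 of the AGO1 probes lower and AGO4 higher. DICER1 fell 2.83-fold on average (log2 fold change -1.50 ± 0.40, SD, n = 3 lines) and was the only 1 of the 14 probes that changed over 2-fold in all 3 lines. Among all probes kept, 4.38% passed that threshold. Of the 14 probes, 2 were called lower and 1 higher by limma at an adjusted p below 0.05. Of all probes kept, 4.52% were called lower and 3.98% higher, 8.5% in all. An unadjusted p below 0.05 was found for 7 of the 14 probes and 5893 of 19956. limma called none of the 14, nor any of 50544 probes, without the filter on dim probes (7 of the 14 at an unadjusted p below 0.05). It also called none of the 14, nor any of the 19956 probes kept, without the cell line in the fit (2 of the 14 at an unadjusted p below 0.05). A change in the same direction in all 3 lines was seen for 12 probes, 8 lower and 4 higher, against 53.6% of all probes. The median of the mean log2 fold changes was -0.30 over the 14 probes and 0.0073 over all probes kept, and the median of their sizes was 0.43 and 0.29. AGO1, AGO3, and XPO5 have more than 1 probe each and so weigh more in these counts and medians. Taken as the mean of their probes, these genes changed by -1.01, -0.44, and -0.31 on the log2 scale.

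**Figure D1:**
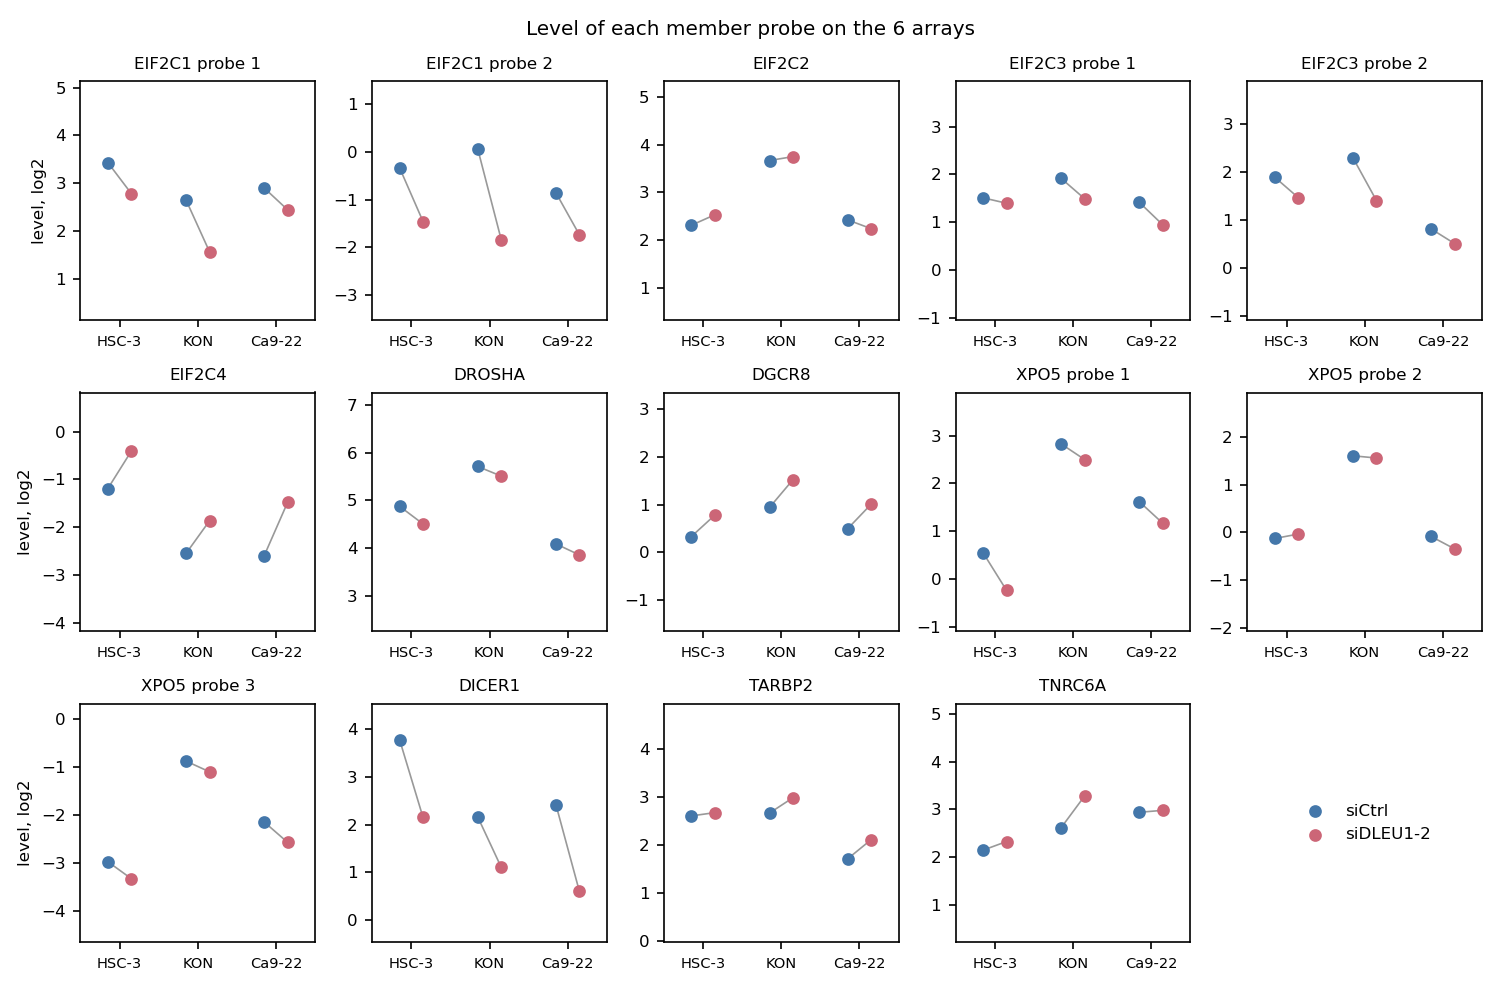
Level of each of the 14 probes on the 6 arrays, as log2 of the signal relative to the 75th percentile of the array, with 1 panel per probe and the same span of 5 log2 units in each panel. Points are single arrays and a line joins the siCtrl and siDLEU1-2 arrays of 1 cell line; all 3 lines slope down for DICER1 and for both AGO1 (EIF2C1) probes and up for AGO4 (EIF2C4), and KON lies highest in all 3 XPO5 panels.

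DROSHA, the nuclear RNase, was measured by a probe at chr5:31401473-31401532 (hg19, minus strand). Its level went from 4.88 with siCtrl to 4.51 with siDLEU1-2 in HSC-3, from 5.71 to 5.51 in KON, and from 4.09 to 3.86 in Ca9-22. The lower array of each pair was the siDLEU1-2 array, but the lines lay further apart than the siRNAs did. The mean change was -0.27 ± 0.09 (SD, n = 3), with a limma 95% interval of -0.62 to 0.09 and an adjusted p of 0.267.

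DGCR8, which holds the primary transcript in place for DROSHA, was measured at chr22:20098916-20098975 (hg19, plus strand). Its level went from 0.33 with siCtrl to 0.78 with siDLEU1-2 in HSC-3, from 0.94 to 1.52 in KON, and from 0.50 to 1.01 in Ca9-22. Each siDLEU1-2 array was the higher of its pair, and the groups overlapped across lines. The change of DGCR8 was alike in size in the 3 lines, 0.45, 0.58, and 0.51 on the log2 scale, with a mean of 0.51 ± 0.07 (SD, n = 3), and missed the threshold (limma adjusted p = 0.0833).

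XPO5, the exporter of the hairpins, has 3 probes on the minus strand of chromosome 6, at chr6:43490583-43490642, chr6:43494424-43494483, and chr6:43491398-43491457 (hg19), numbered 1 to 3 in this order in the plots. None was called after the knockdown. Probe 1 changed by -0.79 (HSC-3), -0.33 (KON), and -0.45 (Ca9-22) on the log2 scale, with a mean of -0.52 ± 0.24 (SD, n = 3, limma adjusted p = 0.112). Probe 3 changed by -0.36, -0.22, and -0.43, with a mean of -0.34 (adjusted p = 0.189), which became -0.12 when another background correction (normexp) was used. Probe 2 had a positive change in HSC-3, 0.09, and negative ones in the other lines, -0.05 (KON) and -0.26 (Ca9-22). Its mean was -0.07 at an adjusted p of 0.789, so the 3 probes did not give 1 direction for XPO5.

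DICER1, the cytoplasmic RNase that releases the miRNA duplex, was measured by 1 probe at chr14:95552615-95552674 (hg19, minus strand). In HSC-3 its level went from 3.78 with siCtrl to 2.15 with siDLEU1-2. It went from 2.16 to 1.11 in KON and from 2.42 to 0.60 in Ca9-22. The siCtrl and siDLEU1-2 groups did not overlap, although the gap was narrow, since the highest siDLEU1-2 array (HSC-3, 2.15) reached almost the lowest siCtrl array (KON, 2.16). Groups without overlap were found for 2 of the 14 probes, DICER1 and 1 AGO1 probe, and for 11% of all probes kept.

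Within lines, DICER1 changed by -1.63 (HSC-3), -1.05 (KON), and -1.81 (Ca9-22) on the log2 scale, which gave the call at an adjusted p of 0.0303 (limma, 95% interval of the mean -2.02 to -0.98). KON lies just inside the 2-fold threshold and fell outside it with the other background correction, at -0.98. The adjusted p was 0.104 without HSC-3, 0.103 without KON, and 0.0811 without Ca9-22. Leaving out HSC-3 or KON left 0 calls by limma among all probes kept (4547 and 4676 at an unadjusted p below 0.05), and leaving out Ca9-22 left 244, against 1697 with all lines.

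The genes whose profile over the 6 arrays was nearest to that of DICER1, after each profile was centered, were IFI16, RABGAP1, TSPAN5, KHNYN, and DCAF6. Likeness was measured as the root mean square difference over 6 arrays, which was 0.178 on the log2 scale for IFI16, a nuclear sensor of DNA (r = 0.997), and 0.248 to 0.273 for the other 4. IFI16 changed by -1.73 (HSC-3), -1.33 (KON), and -2.26 (Ca9-22). These genes were picked for their likeness, and the 6 arrays are shared, so the values are a description.

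TARBP2, the double-stranded RNA binding partner of DICER1, was measured at chr12:53899897-53899956 (hg19, plus strand). Its level went from 2.61 with siCtrl to 2.68 with siDLEU1-2 in HSC-3, from 2.67 to 2.99 in KON, and from 1.71 to 2.11 in Ca9-22. The siDLEU1-2 array was higher in each pair by less than the distance of Ca9-22 from the other lines. The mean change was 0.26 ± 0.17 on the log2 scale (SD, n = 3), with a limma 95% interval of -0.12 to 0.65 and an adjusted p of 0.302. DICER1 and its partner gave opposite signs, of which only that of DICER1 passed the test.

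**Figure D2:**
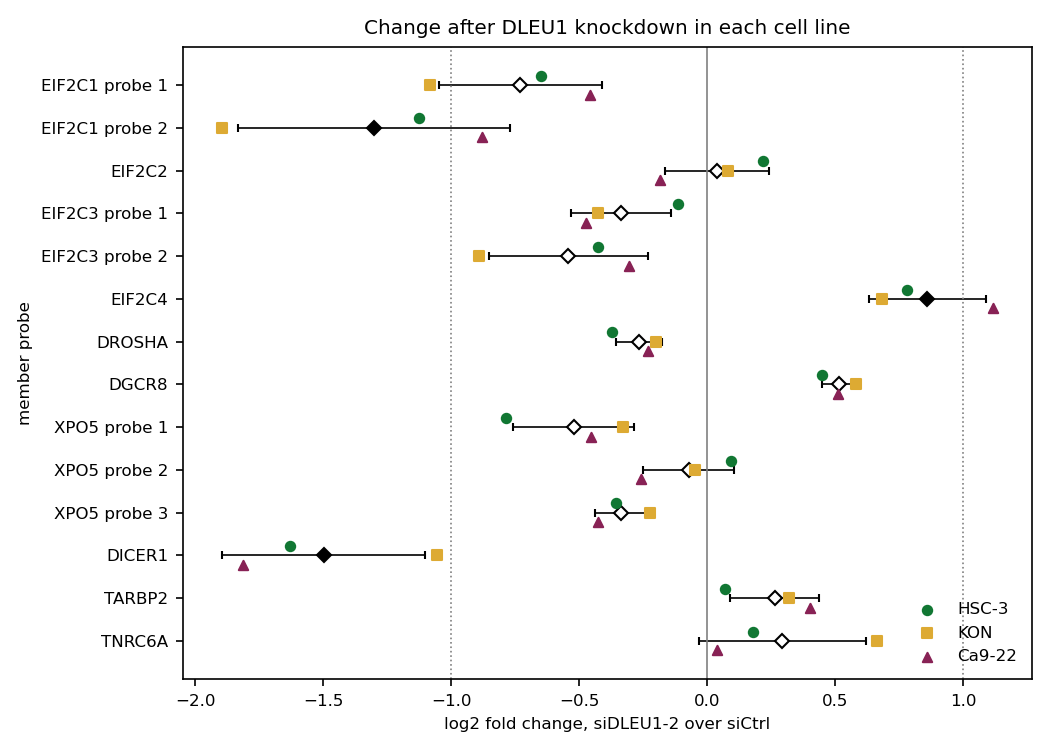
Log2 fold change of each of the 14 probes, siDLEU1-2 over siCtrl, in HSC-3 (circles), KON (squares), and Ca9-22 (triangles). Diamonds and bars are the mean and SD over the 3 lines, filled where limma called the probe, and the dotted lines mark 2-fold; DICER1 lies left of the 2-fold line in all 3 lines, and 12 of 14 probes have all 3 lines on 1 side of 0.

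The 4 Argonaute genes did not move together. AGO1 was lower in all 3 lines at both of its probes and was called at 1 of them, and AGO4 rose. AGO3 was lower in all 3 lines without passing the test, and AGO2 went in different directions in different lines. AGO2 is the family member known for cutting fully paired targets, as an siRNA requires, and the other 3 act mainly through GW182 proteins.

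AGO1 has 2 probes, at chr1:36389840-36389899 (probe 1) and chr1:36386500-36386559 (probe 2, hg19, plus strand). The level of probe 1 went from 3.43 with siCtrl to 2.78 with siDLEU1-2 in HSC-3, from 2.65 to 1.56 in KON, and from 2.90 to 2.44 in Ca9-22. That of probe 2 went from -0.34 to -1.46 in HSC-3, from 0.06 to -1.84 in KON, and from -0.86 to -1.74 in Ca9-22. Both probes were lowest in KON after siDLEU1-2 and lower after siDLEU1-2 than after siCtrl in each line. For probe 2, the highest siDLEU1-2 array lay below the lowest siCtrl array, whereas for probe 1 the groups overlapped.

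The mean log2 fold change of AGO1 was -1.30 ± 0.53 (SD, n = 3) at probe 2, which was called (limma adjusted p = 0.0469), and -0.73 ± 0.32 at probe 1, which was not (adjusted p = 0.0756). KON had the largest change at both probes, -1.90 and -1.08. With the other background correction the change at probe 2 was -0.84 and that at probe 1 was -0.71, and probe 1 was then called as well (adjusted p = 0.0463). The mean of both probes changed by -1.01, at an adjusted p of 0.0556. Without any 1 line probe 2 was not called, at adjusted p of 0.128 (HSC-3), 0.116 (KON), and 0.0801 (Ca9-22).

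AGO2 was measured by 1 probe on chromosome 8 that is spotted 10 times on each array. Its level went from 2.31 with siCtrl to 2.53 with siDLEU1-2 in HSC-3, from 3.67 to 3.75 in KON, and from 2.42 to 2.24 in Ca9-22. The siRNA groups overlapped, and the KON arrays stood above the other 4. Its change was 0.22 (HSC-3), 0.08 (KON), and -0.18 (Ca9-22) on the log2 scale, while its 10 spots had an SD of 0.07 to 0.10 on single arrays. The mean change was 0.04, with a limma 95% interval of -0.36 to 0.44 and an adjusted p of 0.895. Its sign was negative, -0.03, when arrays were centered on their median.

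AGO3 has 2 probes, at chr1:36439052-36439111 (probe 1) and chr1:36521552-36521611 (probe 2, hg19, plus strand). Probe 1 changed by -0.11 (HSC-3), -0.43 (KON), and -0.47 (Ca9-22), and probe 2 by -0.43, -0.89, and -0.31 on the log2 scale. All 6 values are below 0. The means were -0.34 and -0.54, at limma adjusted p of 0.220 and 0.126.

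AGO4 was measured at chr1:36320420-36320479 (hg19, plus strand). Its level went from -1.19 with siCtrl to -0.41 with siDLEU1-2 in HSC-3, from -2.55 to -1.87 in KON, and from -2.60 to -1.48 in Ca9-22. Each siDLEU1-2 array was the higher of its pair, and the groups overlapped across lines, with the HSC-3 siCtrl array above the KON and Ca9-22 siDLEU1-2 arrays. AGO4 rose by 0.86 ± 0.23 on the log2 scale (SD, n = 3), with 0.78 (HSC-3), 0.68 (KON), and 1.12 (Ca9-22) (limma adjusted p = 0.0460). This call was lost when another scaling was used, at adjusted p of 0.0515 to 0.0542, and without any 1 line, at 0.124 to 0.153. With the other background correction the change was 0.44, at an adjusted p of 0.0720. The signal of AGO4 was low, at 41.6 to 151 on the scanner scale.

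AGO4, AGO1, and AGO3 lie side by side on chromosome 1, with 0 genes between AGO4 and AGO1 in RefSeq and 1 noncoding gene between AGO1 and AGO3. Because AGO4 and AGO1 are neighbors whose probes moved in opposite directions, their promoters are printed, as windows of 300 bases around the start, most of them upstream (GRCh38.p14, RefSeq, plus strand). The AGO4 window is chr1:35807766-35808065 and the AGO1 window is chr1:35882959-35883258. Capitals mark the GC box, GGGCGG on either strand.
AGO4 promoter: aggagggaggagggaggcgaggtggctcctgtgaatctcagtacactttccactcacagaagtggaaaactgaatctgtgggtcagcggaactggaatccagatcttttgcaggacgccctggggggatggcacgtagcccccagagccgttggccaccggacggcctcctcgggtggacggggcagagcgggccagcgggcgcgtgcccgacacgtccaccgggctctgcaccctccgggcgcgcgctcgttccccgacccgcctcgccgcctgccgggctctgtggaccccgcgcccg
AGO1 promoter: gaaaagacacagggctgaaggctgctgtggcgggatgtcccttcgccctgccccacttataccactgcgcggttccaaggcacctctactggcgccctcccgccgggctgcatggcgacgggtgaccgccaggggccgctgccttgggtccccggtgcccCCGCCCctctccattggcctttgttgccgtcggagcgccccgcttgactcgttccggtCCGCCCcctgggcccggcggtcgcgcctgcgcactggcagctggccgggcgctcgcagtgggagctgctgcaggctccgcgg

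The GC box occurs 2 times in the AGO1 window and 0 times in the AGO4 window, and 45.0% of 35116 RefSeq promoters of this length hold it. Both windows are rich in G and C, at 72.3% for AGO1 and 69.0% for AGO4 against a median of 58.7%, and hold 30 and 29 CpG sites against a median of 14. The letters are a description of the windows, and nothing about the binding of a factor was measured. A link between these letters and the direction of the change was not tested.

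TNRC6A, the GW182 protein of the list, was measured at chr16:24835610-24835669 (hg19, plus strand). Its level went from 2.15 with siCtrl to 2.33 with siDLEU1-2 in HSC-3, from 2.62 to 3.28 in KON, and from 2.94 to 2.98 in Ca9-22. The siDLEU1-2 array was higher in each pair, by 0.66 in KON but by 0.18 in HSC-3 and 0.04 in Ca9-22. The mean change was 0.29 ± 0.33 on the log2 scale (SD, n = 3, limma adjusted p = 0.342), and 0.11 without KON.

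The cell lines differed from each other in these genes. XPO5, AGO2, and DROSHA were highest in KON, DICER1 and AGO4 were highest in HSC-3, and TARBP2 was lowest in Ca9-22. Each line has 2 arrays, 1 per siRNA, so a line difference here is the mean over both siRNAs, and its error is the spread left after line and siRNA in the limma fit of all 6 arrays. Of the 14 probes, 9 were called between HSC-3 and KON (36.2% of all probes), 3 of them higher in HSC-3 (19.2%) and 6 lower (17%). Between HSC-3 and Ca9-22, 7 were called (36.6%), 5 higher in HSC-3 (21.3%) and 2 lower (15.2%). The pair KON and Ca9-22 also gave 7 calls (33.2%), all of them higher in KON, where 18.8% of all probes were called higher and 14.4% lower. By gene, 7, 6, and 5 of the 10 genes had a called probe in these 3 pairs, because more than 1 XPO5 probe was called in each pair. Without the filter on dim probes, the calls were 5 between HSC-3 and KON, 3 between HSC-3 and Ca9-22, and 5 between KON and Ca9-22. The sign of the difference was the same after both siRNAs for 12, 12, and 10 of the 14 probes in these 3 pairs.

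XPO5 probe 1 had the largest difference between HSC-3 and KON among the 14 probes. From siCtrl to siDLEU1-2, its level went from 0.55 to -0.24 in HSC-3, from 2.82 to 2.50 in KON, and from 1.61 to 1.16 in Ca9-22. Probe 2 went from -0.13 to -0.03 in HSC-3, from 1.60 to 1.56 in KON, and from -0.09 to -0.34 in Ca9-22. Probe 3 went from -2.98 to -3.33 in HSC-3, from -0.87 to -1.10 in KON, and from -2.15 to -2.57 in Ca9-22. At all 3 probes both KON arrays lay above the other 4.

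HSC-3 was lower than KON by 2.51, 1.66, and 2.17 on the log2 scale at XPO5 probes 1 to 3 (limma adjusted p = 0.00608, 0.00736, and 0.00607). KON was higher than Ca9-22 by 1.27, 1.80, and 1.38 (adjusted p = 0.0141, 0.00772, and 0.00965). HSC-3 was also lower than Ca9-22 at probe 1, with a difference of -1.23, and at probe 3, with -0.79 (adjusted p = 0.0134 and 0.0253). At probe 2, HSC-3 and Ca9-22 differed by 0.13, with a 95% interval of -0.34 to 0.61 (adjusted p = 0.578).

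DROSHA was higher in KON than in HSC-3, with a difference HSC-3 minus KON of -0.92 on the log2 scale, and higher in HSC-3 than in Ca9-22, by 0.72 (limma adjusted p = 0.0181 and 0.0313). KON exceeded Ca9-22 by 1.64 (adjusted p = 0.00786), so all neighbors in the order KON, HSC-3, Ca9-22 differed beyond their spread. DGCR8 had the order KON, Ca9-22, HSC-3, in which KON and HSC-3 were called, at -0.68 for HSC-3 minus KON (adjusted p = 0.0341). KON minus Ca9-22 was 0.48 for DGCR8, with a 95% interval of 0.05 to 0.91 that excludes 0, and missed the adjusted threshold (adjusted p = 0.0837), and HSC-3 minus Ca9-22 was -0.20, with a 95% interval of -0.63 to 0.23.

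DICER1 was highest in HSC-3, by 1.33 over KON and by 1.46 over Ca9-22 on the log2 scale (limma adjusted p = 0.0186 and 0.0152). KON and Ca9-22 differed by 0.13, with a 95% interval of -0.51 to 0.76 (adjusted p = 0.716). As a result the HSC-3 array after the knockdown was at the DICER1 level of the KON array after siCtrl. TARBP2 was lower in Ca9-22, by 0.73 against HSC-3 and 0.92 against KON (adjusted p = 0.0361 and 0.0226), and HSC-3 and KON differed by -0.19, with a 95% interval of -0.66 to 0.28.

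Among the Argonaute genes, AGO2 was higher in KON than in HSC-3, with HSC-3 minus KON at -1.29 on the log2 scale, and higher than in Ca9-22 by 1.38 (limma adjusted p = 0.0116 and 0.0113). HSC-3 and Ca9-22 differed in AGO2 by 0.09, with a 95% interval of -0.40 to 0.58. AGO4 was higher in HSC-3, by 1.41 over KON and 1.24 over Ca9-22 (adjusted p = 0.0104 and 0.0130), with -0.17 between KON and Ca9-22 (95% interval -0.68 to 0.33). AGO1 was higher in HSC-3 than in KON at probe 1, by 0.78 with siCtrl and 1.22 with siDLEU1-2 (adjusted p of their mean 0.0272), while at probe 2 the difference was -0.01 (adjusted p = 0.989). AGO3 was lower in Ca9-22 at probe 2, by 1.02 against HSC-3 and 1.20 against KON (adjusted p = 0.0253 and 0.0188), while no pair was called at probe 1. TNRC6A gave no call, with differences of -0.71 for HSC-3 minus KON and -0.72 for HSC-3 minus Ca9-22 (adjusted p = 0.0619 and 0.0598).

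**Figure D3:**
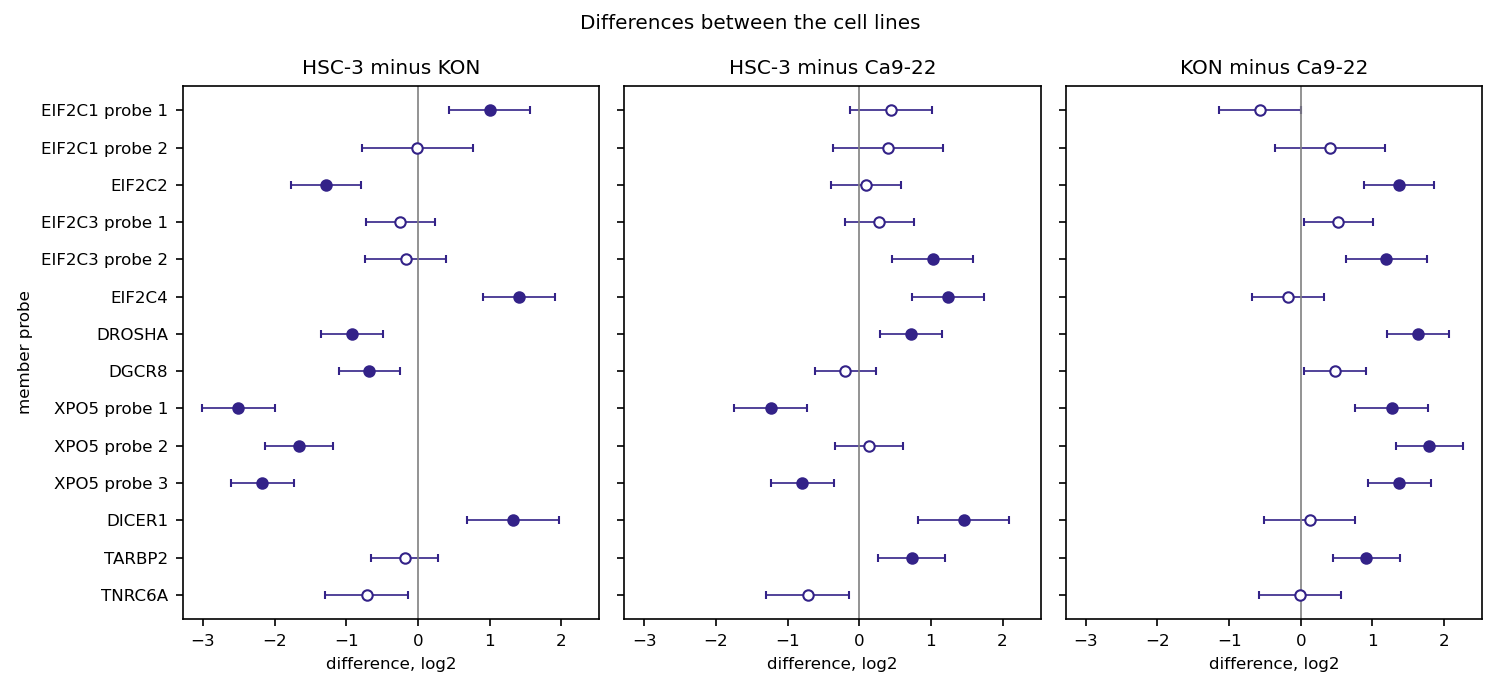
Difference in level between cell lines for each of the 14 probes, on the log2 scale, as the mean over both siRNAs with its limma 95% interval, filled where called. In the panel KON minus Ca9-22 all 7 called probes lie right of 0, and the 3 XPO5 probes lie furthest from 0 in the panel HSC-3 minus KON, at -2.51 to -1.66.

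Other genes of the pathway were counted from 9 lists of 102 genes that work with the 10 described above, of which 99 have a probe and 88 passed the filter, with 132 probes. Of these probes, 2 were called higher and 7 lower after the knockdown, 6.82% in all against 8.5% of all probes kept. DCP2, the enzyme that removes the cap from messenger RNA, rose the most. CNOT7 rose and was called at 1 of its probes. The hairpin hosts MCM7 and MIR205HG, the decay factor DDX6, and the Microprocessor cofactor ERH fell. limma called no probe in the lists of Dicer partners and RISC loading (18 probes, 3 with an unadjusted p below 0.05), tailing and decay of miRNAs (15 and 4), nuclear export (7 and 1), other Argonaute-bound proteins (15 and 0), and PIWI proteins and piRNA methylation (1 and 1). The 1 probe of that last list is HENMT1, a piRNA methyltransferase named after its value was seen, since PIWIL1 to PIWIL4 did not pass the filter and were not tested. The median log2 fold change over the 132 probes was 0.05.

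DCP2 had levels of 0.27, 0.27, and -0.68 with siCtrl (HSC-3, KON, and Ca9-22 in this order) and of 2.98, 3.35, and 1.81 with siDLEU1-2. The groups did not overlap. DCP2 rose by 2.76 ± 0.30 on the log2 scale (SD, n = 3, limma adjusted p = 0.0227) and was over 2-fold higher in all 3 lines. In the same list of decapping and decay genes (15 probes), DDX6, an RNA helicase that links deadenylation to decapping, fell at both of its probes, by 0.88 and 0.98 (adjusted p = 0.0460 and 0.0320).

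ERH, a small protein that joins the Microprocessor and 1 of the listed cofactors (23 probes), fell by 0.69 ± 0.05 on the log2 scale (SD, n = 3, limma adjusted p = 0.0493). Its level was lower with siDLEU1-2 in each line.

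In the list of GW182 paralogs and deadenylation (25 probes), CNOT7, a subunit that shortens the poly(A) tail, rose by 0.97 ± 0.33 on the log2 scale at 1 probe (SD, n = 3, limma adjusted p = 0.0473). Its other probe changed by 0.67 (adjusted p = 0.0600). The paralogs of TNRC6A are named here although they were chosen after their values were seen. TNRC6B changed by -0.50 ± 0.10 and TNRC6C by 0.72 ± 0.43 (adjusted p = 0.0899 and 0.105). The lowest mean of the list was that of BTG2, at -1.76 ± 0.88 (adjusted p = 0.0541), which was also named after its value was seen.

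MCM7, a subunit of the replicative helicase whose introns hold miRNA hairpins, fell at both of its probes, by 1.10 ± 0.16 and 1.20 ± 0.23 on the log2 scale (SD, n = 3, limma adjusted p = 0.0297 and 0.0298), and both were over 2-fold lower in all 3 lines. MIR205HG, the primary transcript of miR-205, an epithelial miRNA, fell by 1.08 ± 0.23 (adjusted p = 0.0319). The arrays measured these host transcripts and no mature miRNA. RefSeq places 4 hairpins in them, each with a 5p and a 3p strand. For each hairpin 1 of the strands was selected and is printed as RefSeq gives it, with the seed in capitals, to show how it relates to the guide of siDLEU1-2, and the opposite strands are not printed.
hsa-miR-106b-5p: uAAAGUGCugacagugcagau
hsa-miR-93-5p: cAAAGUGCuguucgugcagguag
hsa-miR-25-3p: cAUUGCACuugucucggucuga
hsa-miR-205-5p: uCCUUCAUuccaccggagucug

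The first pair, from MCM7, share 1 seed, and bases 3 to 8 of that seed are bases 3 to 8 of the siDLEU1-2 guide. The seed of hsa-miR-25-3p, also from MCM7, and that of hsa-miR-205-5p, from MIR205HG, do not contain them. In RefSeq (GRCh38.p14), hsa-miR-106b-5p lies at chr7:100094043-100094063 and hsa-miR-93-5p at chr7:100093815-100093837 on the minus strand, and hsa-miR-205-5p at chr1:209432166-209432187 on the plus strand.

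**Figure D4:**
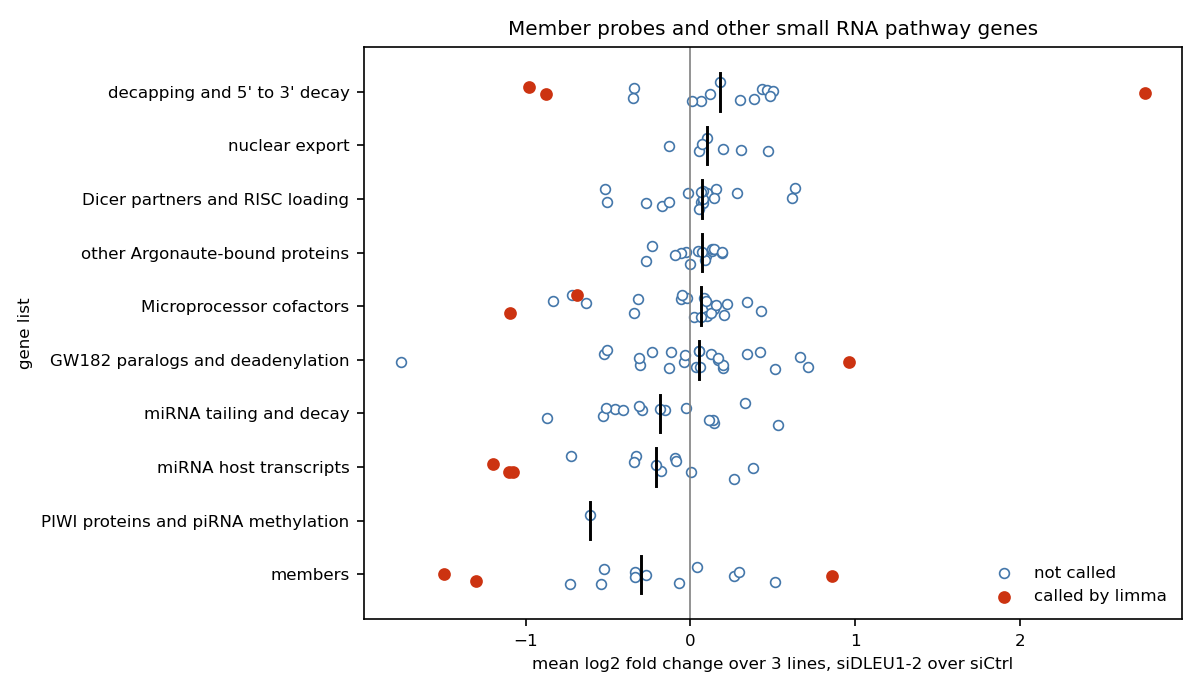
Mean log2 fold change over the 3 lines, siDLEU1-2 over siCtrl, of the 14 probes of the 10 genes (members) and of the 132 probes of the other pathway lists, with 1 point per probe, filled where limma called it, and a bar at the median of each list. The filled points are the 3 called members and the 9 called pathway probes, with DCP2 furthest right at 2.76.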

How the data were processed

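Expression of the 10 genes was analyzed on 6 one-color Agilent arrays. The deposited files are the output of Agilent Feature Extraction 10.7.3.1 and give an intensity for each spot. The processed signal used is that intensity after background subtraction by the software, without scaling between arrays, and a deposited series table holds the same values, rounded. The normalization of the study is not given in the sources used here.

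Log2 of the signal was taken and the 75th percentile of each array subtracted. Control and outlier spots were left out and spots of a probe averaged. A probe was kept if, in every line, 1 or both arrays had at least 50% of its spots flagged as well above background. limma 3.58.1 (R 4.3.3) was fitted with line and siRNA as terms, with Benjamini-Hochberg adjustment over 19956 probes, and the line contrasts come from the same fit. The line is the block because it supplied both RNAs of a pair. Deviations of arrays from their siRNA mean correlated at 0.81 to 0.83 within lines. The number of arrays limits precision. The p-values rest on the spread left after line and siRNA, which for the knockdown is how unevenly the change ran across the lines. The fit was tested on simulated data of 19956 probes, of which 200 were changed by 1.5 on the log2 scale. For the knockdown it recovered 174 of the 200, with 21 false calls. For HSC-3 against KON it recovered 139 of the 200, with 13 false calls.

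The genes, lists, and tests were chosen with earlier results of these data known. Named genes are the members, the called pathway genes, the 5 symbols nearest to a member over 2-fold in all lines, DLEU1, and markers, and exceptions are stated. Alternatives were quantile, median, and detected-probe scaling, normexp with an offset of 50, the series table, 2 other filters, a floor, other fold thresholds, means of the probes of a gene, leaving out a line, no block, and the methods' t-test. All 10 names matched RefSeq (GRCh38.p14), used for current symbols and sequences. Probe positions are those of the files (hg19), and exons and UTRs were not analysed here. Of the listed genes, ZSWIM8, MIR210HG, and DLEU2 have no probe by these names. The values of 1 listed gene are not reported here.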

Additional observations from a re-analysis of the deposited data

Results flagged for a closer look

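AGO2 and XPO5 probe 2 were singled out because their changes after siDLEU1-2 had different signs in different lines, and these differences between lines were not tested. For AGO2 (EIF2C2), the changes of 0.22 in HSC-3 and -0.18 in Ca9-22 span 0.402 on the log2 scale. For XPO5 probe 2, the changes of 0.09 in HSC-3 and -0.26 in Ca9-22 span 0.352. Neither probe was called by limma (adjusted p = 0.895 and 0.789). With 1 array per line and siRNA, no error within a line is available.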

How the results depend on the processing

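Of the recomputed counts, 58 stayed within 1.5 times the reported one and 43 did not. The count of 1 probe over 2-fold in all lines became 0 with normexp or at 3-fold, 3 at 1.5-fold, and 1 to 2 when a line was left out. The 1 probe called higher became 0 under quantile, median, and detected-probe scaling, normexp, no filter, no block, and the methods' t-test. It was 0 to 0 when a line was left out. The 2 probes called lower became 0 without a filter, without the block, with the adjusted t-test, and without a line (0 to 0), and 1 with the unadjusted t-test or the mean of the probes of a gene. Of the pathway probes, the 2 called higher became 1 under quantile or detected-probe scaling, 4 with normexp or the filter on all 6 arrays, 6 with the unadjusted t-test, 0 with no filter, no block, or the adjusted t-test, and 0 to 1 without a line. The 7 called lower became 0 with no filter, no block, or the adjusted t-test, 0 to 0 without a line, and 4 with means per gene. Without a filter, calls between lines were 5 for HSC-3 and KON and 3 for HSC-3 and Ca9-22. They were 8 to 8, 5 to 5, and 7 to 7 with the unused line left out.

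limma called 0 of 19956 probes without the replicate block and 0 of 50544 without a filter (1357 and 6816 at an unadjusted p below 0.05). The block uses the pairing by line. DICER1 was called under the 3 other scalings, normexp, the series table, and the floor. AGO2 changed sign at -0.033 with median centering and -0.051 without HSC-3, and XPO5 probe 2 at 0.023 without Ca9-22. Median centering moved the median of all probes from 0.0073 to -0.06 and the share called higher from 46.8 to 37.4%. The cause of these shifts was not tested.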

Other observations

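LIN28B, which blocks the maturation of let-7, is in the pathway lists but did not pass the filter, which asks for every line, since it was well above background in 2 of the 3 lines (3 of 6 arrays), and was named after its values were seen. Its signal on the scanner scale was 414 after siCtrl and 1636 after siDLEU1-2 in KON, 4.20 and 92.5 in HSC-3, and 5.52 and 6.23 in Ca9-22. It was not tested.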
